A study of Mus musculus with 8 samples.

Results

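Lysosomal hydrolases and membrane proteins were examined as a set of 37 genes in the outer renal cortex of mice on 2 diets. They were listed by name for what they encode, no measured value entering the rule, although earlier results of these data were known when the list was drawn up. Each was found by its symbol among the 23504 gene symbols of the count table. They comprise 5 genes of the lysosomal membrane and its transcriptional control, 11 proteases, 8 glycan hydrolases, 6 hydrolases of glycosaminoglycans and 7 lipid hydrolases and their activators. All 37 passed the filter on low counts. The mice were wild type C57Bl6/J, with 4 libraries from a high fat diet (A, B, F and G) and 4 from a control diet (I, J, L and M). Feeding began at 6 weeks of age and lasted 9 weeks, so that both diets were sampled at 15 weeks. The labels do not state whether the 8 libraries are 8 mice, and p-values here reflect the spread among libraries, which may be technical.

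Lysosomes are acidic organelles in which proteins, glycans and lipids are taken apart for reuse. Their soluble enzymes are made in the endoplasmic reticulum, tagged with mannose 6-phosphate in the Golgi and carried by receptors to endosomes, while membrane proteins such as LAMP1 and LAMP2 line the organelle. In the kidney cortex, proximal tubule cells degrade filtered proteins in lysosomes after uptake by megalin and cubilin. Many lysosomal genes are targets of the transcription factor TFEB, which binds the short palindrome CACGTG within a longer site, the CLEAR element, and which is held in the cytoplasm when the kinase mTOR is active.

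The promoters of these genes were read because that palindrome marks known TFEB sites. RefSeq (GRCm38.p6) held a promoter entry for 33 of the 37 genes and none for Ctsb, Ctsh, Galns and Asah1. In the 250 bases before the start of a RefSeq entry, 12 of the 33 genes (36.4%) held CACGTG, against 9.53% of the 10348 tested genes with an entry. The longer GTCACGTG, which contains it and was searched on both strands, was found in 9 of 33 genes (27.3%) against 3.75%. The full CLEAR palindrome, which extends GTCACGTG symmetrically, was found in 0 of 33 genes and in 0.560% of tested genes. These shares were not matched for base composition. The starts are those of RefSeq, and some lie inside the gene by its GENCODE position. The GTCACGTG copy nearest the RefSeq start lies inside the GENCODE gene in Ctsa, Ctsd, Mcoln1 and Naglu. In Sgsh it spans the GENCODE start. The other Ctsa entry, just before its GENCODE start, held no CACGTG. Lamp1 held 4 copies within the last 80 bases before its start, the most of any promoter of the set, and is therefore shown at that length (chr8:13159081-13159160, plus strand). For the 8 other genes that hold GTCACGTG the 30 bases around the copy nearest the start are given, 5′ to 3′ on the strand of the gene, with each CACGTG in capitals. Glb1 and Ctsa rose on the high fat diet, and the other 6 did not pass. Of the 6 genes with an entry that rose, 3 held CACGTG, and of the 27 that did not pass, 9 did. Psap, Neu1 and Tpp1 rose and held no CACGTG in their entries. Whether the motif bears on the rises was not tested.
Lamp1: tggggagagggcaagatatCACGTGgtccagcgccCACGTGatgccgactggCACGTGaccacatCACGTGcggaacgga
Glb1 (chr9:114401018-114401047, plus): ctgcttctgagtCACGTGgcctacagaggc
Ctsa (chr2:164833743-164833772, plus): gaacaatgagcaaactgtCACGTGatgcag
Mcoln1 (chr8:3500462-3500491, plus): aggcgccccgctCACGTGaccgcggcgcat
Ctsd (chr7:142387908-142387937, minus): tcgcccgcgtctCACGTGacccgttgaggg
Naglu (chr11:101070009-101070038, plus): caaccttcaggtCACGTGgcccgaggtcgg
Sgsh (chr11:119355522-119355551, minus): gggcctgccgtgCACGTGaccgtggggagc
Arsa (chr15:89477425-89477454, minus): cttcaactcagtgtCACGTGttgtctgctc
Gla (chrX:134601182-134601211, minus): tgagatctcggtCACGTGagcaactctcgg

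Depth was 23503593 to 30781585 expected counts per library. Rn45s, the precursor of ribosomal RNA, took 50.3% of the counts of control J and 1.23% to 13.3% of the others, and was left out before library sizes were summed. Control J then held 13993652 counts against 21793784 to 30403685 elsewhere, and the fits below were also run without it. Proximal tubule markers, 12 genes that define the main cell type of the cortex, summed to 30035 to 30935 CPM (counts scaled to a library total of 1e6) on the high fat diet and 29603 to 31384 CPM on the control diet. Within that overlapping sum, 7 of the 12 had an unadjusted p under 0.05. Slc34a1, the phosphate transporter, rose 1.26-fold (adjusted p = 0.0495 in edgeR), while Cubn, which encodes cubilin, and Aqp1, a water channel, fell by 0.26 and 0.22 on the log2 scale. Lrp2, which encodes megalin, had all high fat values below all control values and did not pass. In bulk tissue, fewer cells of a type and less RNA per cell cannot be told apart. The thick ascending limb markers summed to 3185 to 3927 CPM on the high fat diet and 3945 to 4648 CPM on the control diet, without overlap, and 5 of those 7 markers fell. Of 11 distal tubule and collecting duct markers 2 fell, Scnn1g and Avpr2. Over all 14711 tested genes 4.86% rose and 5.13% fell, and 27.4% had an unadjusted p under 0.05 in edgeR. All high fat values lay below all control values in 9.2%. The part of the marker changes in the results below was not tested.

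On the high fat diet 7 of the 37 lysosomal genes rose, 0 fell and 30 did not pass (edgeR quasi-likelihood test, Benjamini-Hochberg adjusted p under 0.05 over 14711 genes). The 7 were Psap, Galns, Glb1, Lamp1, Neu1, Tpp1 and Ctsa. Over all tested genes, 9.99% were called, 4.86% as rises and 5.13% as falls, beside 18.9% of the lysosomal genes as rises. DESeq2 and limma-voom also called 0 falls. At an unadjusted p under 0.05 there were 19 genes, of which 16 were higher and 3 (Ctsc, Manba and Asah1) lower on the high fat diet, and over all tested genes 27.4% reached that level. The increases were small. The largest, in Psap, was 1.45-fold and the smallest called, in Ctsa, 1.13-fold.

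Most of the set lay above 0. The median log2 fold change was 0.14, with quartiles of 0.025 and 0.23, against a median of -0.0023 over all tested genes. In 30 of 37 genes (81.1%) the log2 fold change was above 0, beside 49.5% of all tested genes. In 12 genes all 4 high fat values lay above all 4 control values, and in 1, Asah1, they lay below; the shares over all tested genes were 8.31% and 9.2%. The summed level of the 37 genes was 10483, 10532, 10991 and 10154 CPM in high fat A, B, F and G and 8937, 8729, 9116 and 9050 CPM in control I, J, L and M. The groups did not overlap, and the ratio of their means was 1.18. With the 2 most abundant genes, Psap and Lamp1, left out of the sum, the ranges were 6708 to 6975 CPM and 6077 to 6427 CPM. The plot of fold changes shows the 5 classes of gene side by side.

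**Figure D1:**
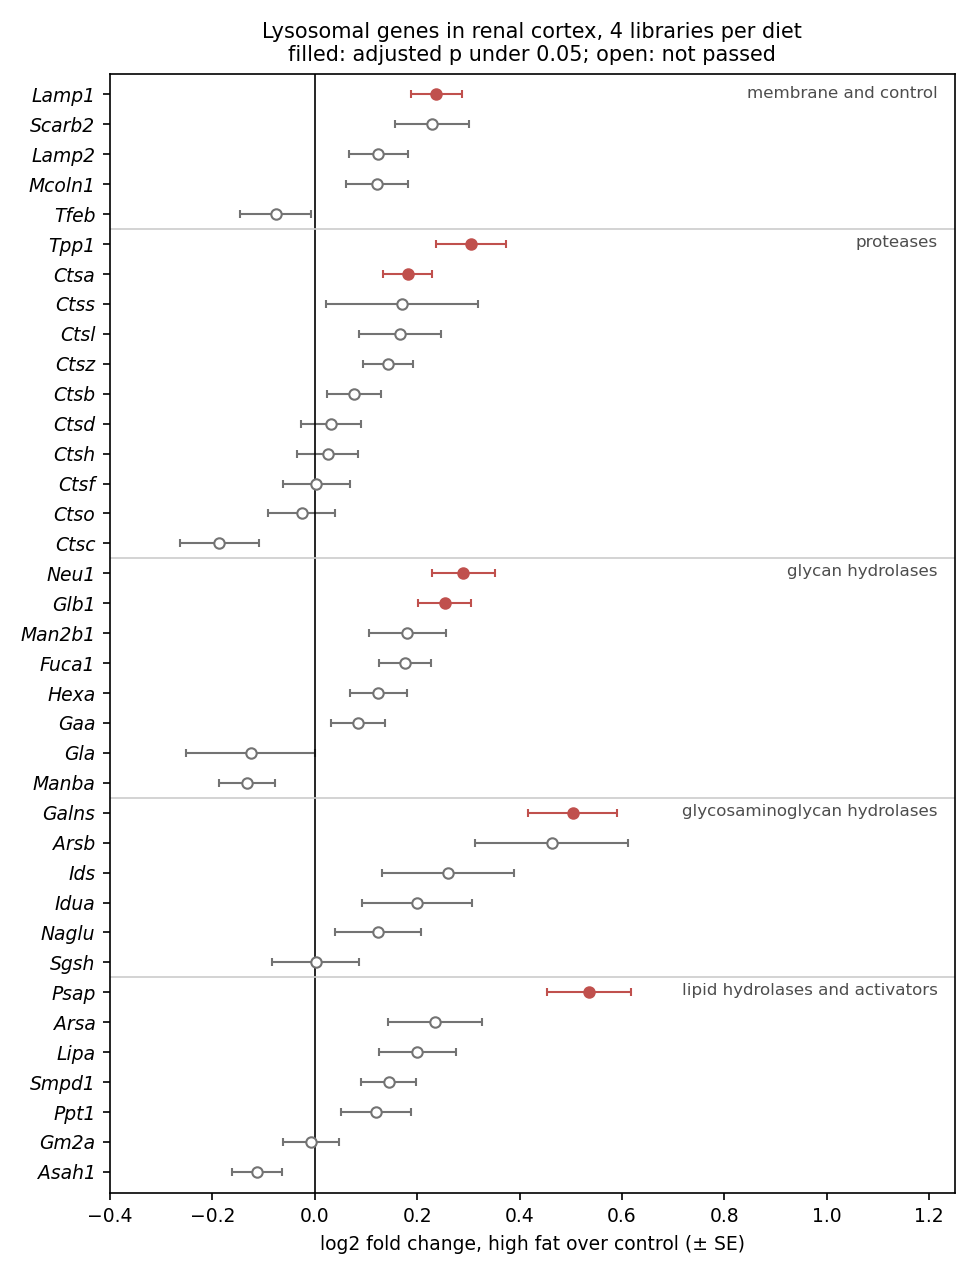
Log2 fold change of each of the 37 genes, high fat over control, with its standard error, grouped by role (x axis, log2 scale; filled points rose at an adjusted p under 0.05, open points did not pass). Points lie to the right of 0 for 30 of 37 genes, and Psap and Galns lie farthest to the right at 0.54 and 0.50.

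Levels of different genes were compared per length, as FPKM rescaled to 1e6 per library without Rn45s. On the control diet Psap was the highest of the set at 1239 ± 152 rescaled FPKM (SD, n = 4), followed by Lamp1 at 967 ± 43.2, Lamp2 at 730 ± 33.9, Ctsd at 698 ± 23.5 and Ctsl at 528 ± 79.1. Of these neighbours, Lamp2 and Ctsd differed by less than the SD of Lamp2, and the others by more than either SD. At the other end were Idua at 4.19 ± 0.490, Gla at 4.55 ± 0.491, Arsa at 5.25 ± 0.753 and Sgsh at 8.33 ± 1.21 rescaled FPKM (SD, n = 4 for each). Idua and Gla differed by less than either SD, and Gla and Arsa by less than the SD of Arsa. Idua rested on as few as 88 counts in a library. Within a diet most genes varied little. The coefficient of variation of CPM had a median of 5.35% on the high fat diet and 5.74% on the control diet, with the highest values in Arsb (22.1% and 15.6%) and Ctss (21.7% and 16.6%).

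The counts by class stand beside the same shares over all tested genes, 4.86% as rises, 5.13% as falls and 27.4% at an unadjusted p under 0.05. Among the lysosomal membrane and control genes 1 of 5, Lamp1, rose. Lamp1 (chromosome 8, 13159161 to 13175338, GENCODE M21 on GRCm38) encodes an abundant glycoprotein of the lysosomal membrane. It was at 1283, 1306, 1304 and 1249 CPM in high fat A, B, F and G and at 1093, 1108, 1078 and 1082 CPM in control I, J, L and M. The diets were well apart, and neither held a library far from its group. The log2 fold change was 0.24 ± 0.050 (SE), with adjusted p = 0.016 in edgeR. Of the exon bases of Lamp1, 9.31% are shared with Grtp1 on the opposite strand, and the sources used here do not give whether the counting used strand.

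Lamp2, the partner of LAMP1 that also serves in autophagy, was at 877, 940, 898 and 841 CPM on the high fat diet and at 856, 835, 788 and 785 CPM on the control diet. High fat G lay below control I, so the groups overlapped, and the log2 fold change of 0.12 ± 0.058 (SE) did not pass (adjusted p = 0.19 in edgeR). Scarb2, whose product LIMP-2 carries glucocerebrosidase to the lysosome, was at 43.4, 44.8, 43.3 and 43.5 CPM against 42.1, 33.8, 38.5 and 34.5 CPM. All 4 high fat values were higher and nearly equal, while control I came close to them. Its log2 fold change of 0.23 ± 0.072 (SE) did not pass in edgeR (adjusted p = 0.066) and passed in DESeq2 (adjusted p = 0.040). Mcoln1, the calcium channel mucolipin 1, had a log2 fold change of 0.12 ± 0.060 (SE) and did not pass.

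Tfeb itself had values of 20.4, 21.5, 21.3 and 24.5 CPM in high fat A, B, F and G and of 21.9, 23.5, 22.9 and 24.2 CPM in control I, J, L and M. High fat A, B and F lay below every control, while high fat G was the highest of all 8 libraries. The log2 fold change was -0.077 ± 0.070 (SE) and did not pass (adjusted p = 0.52 in edgeR). It was -0.13 without high fat G and -0.044 without high fat A, and did not pass in either fit. Transcript level says nothing of the place or the phosphorylation of the TFEB protein.

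Of the 11 proteases, 2 rose, 0 fell and 9 did not pass in edgeR. At an unadjusted p under 0.05 there were 4, of which Ctsc was lower. DESeq2 called 3 rises and 0 falls, and limma-voom 2 and 0. Tpp1 (chromosome 7, 105744811 to 105752235) encodes tripeptidyl peptidase 1, which trims tripeptides from protein ends. It was at 145, 141, 172 and 168 CPM in high fat A, B, F and G and at 127, 125, 127 and 128 CPM in control I, J, L and M. The control libraries were nearly level, at 127 ± 0.938 CPM (SD, n = 4), while high fat F and G stood above A and B. The log2 fold change was 0.31 ± 0.069 (SE), with adjusted p = 0.021 in edgeR. That call was lost without control I or J or without high fat F or G, with an adjusted p of up to 0.058 in edgeR.

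Ctsa (chromosome 2, 164832873 to 164841032) encodes cathepsin A, a carboxypeptidase that also protects β-galactosidase and neuraminidase 1 in a complex. It was at 289, 306, 316 and 302 CPM on the high fat diet and at 274, 265, 266 and 265 CPM on the control diet. The groups did not overlap, although high fat A was only slightly above control I. Its log2 fold change of 0.18 ± 0.048 (SE) passed with adjusted p = 0.039 in edgeR, but in none of the 8 fits without a library (adjusted p up to 0.11, without high fat F). The 2 other genes of that complex, Glb1 and Neu1, are described with the glycan hydrolases. Of the exon bases of Ctsa, 10.5% are shared with Pltp and 6.87% with Neurl2, both on the opposite strand.

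The abundant cathepsins did not pass. Ctsb, a cysteine protease, was at 578, 569, 543 and 546 CPM in high fat A, B, F and G and at 532, 525, 557 and 507 CPM in control I, J, L and M, with a log2 fold change of 0.076 ± 0.052 (SE) and adjusted p = 0.38 in edgeR. Control L lay among the high fat values. Ctsd, the main aspartic protease of the lysosome, was at 716, 739, 662 and 666 CPM against 672, 705, 703 and 642 CPM, with a log2 fold change of 0.032 ± 0.059 (SE). The 2 ranges were almost the same. Of the exon bases of Ctsd, 34.4% are shared with Gm49369 on the same strand, the largest share in the set. Sgsh shares 21.6% with Card14, Ctsb 12.8% with Fdft1 and Hexa 12.8% with Tmem202, all on the opposite strand. Ctsl, another cysteine protease, was at 620, 589, 556 and 555 CPM against 544, 434, 565 and 523 CPM. Control J was the lowest of its group. The log2 fold change of 0.17 ± 0.081 (SE) did not pass (adjusted p = 0.21 in edgeR), and it was 0.092 without control J.

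The remaining 6 proteases ranged from -0.19 to 0.17 in log2 fold change. Ctsz, cathepsin Z, was at 144, 152, 147 and 138 CPM against 132, 133, 128 and 131 CPM, without overlap. It did not pass in edgeR (adjusted p = 0.084) and passed in DESeq2 (adjusted p = 0.040). Ctsc, which activates the serine proteases of immune granules, had the lowest fold change of the set at -0.19 ± 0.077 (SE). It was at 17.6, 18.6, 18.2 and 22.0 CPM in high fat A, B, F and G and at 20.999, 21.552, 21.767 and 22.637 CPM in control I, J, L and M. High fat G sat among the controls, and without it the log2 fold change was -0.26, with adjusted p = 0.044 in edgeR. Ctss, a cathepsin of antigen-presenting cells, was at 20.5, 20.4, 18.4 and 29.2 CPM against 17.6, 17.1, 24.2 and 19.3 CPM. High fat G and control L were the highest of their groups, and the log2 fold change of 0.17 ± 0.15 (SE) was 0.0070 without high fat G and 0.29 without control L. Both also had the highest sums of 16 macrophage markers in their groups, 179 CPM in high fat G and 168 CPM in control L. Ctsf, Ctsh and Ctso had log2 fold changes of 0.0032, 0.025 and -0.026, each smaller than its standard error.

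**Figure D2:**
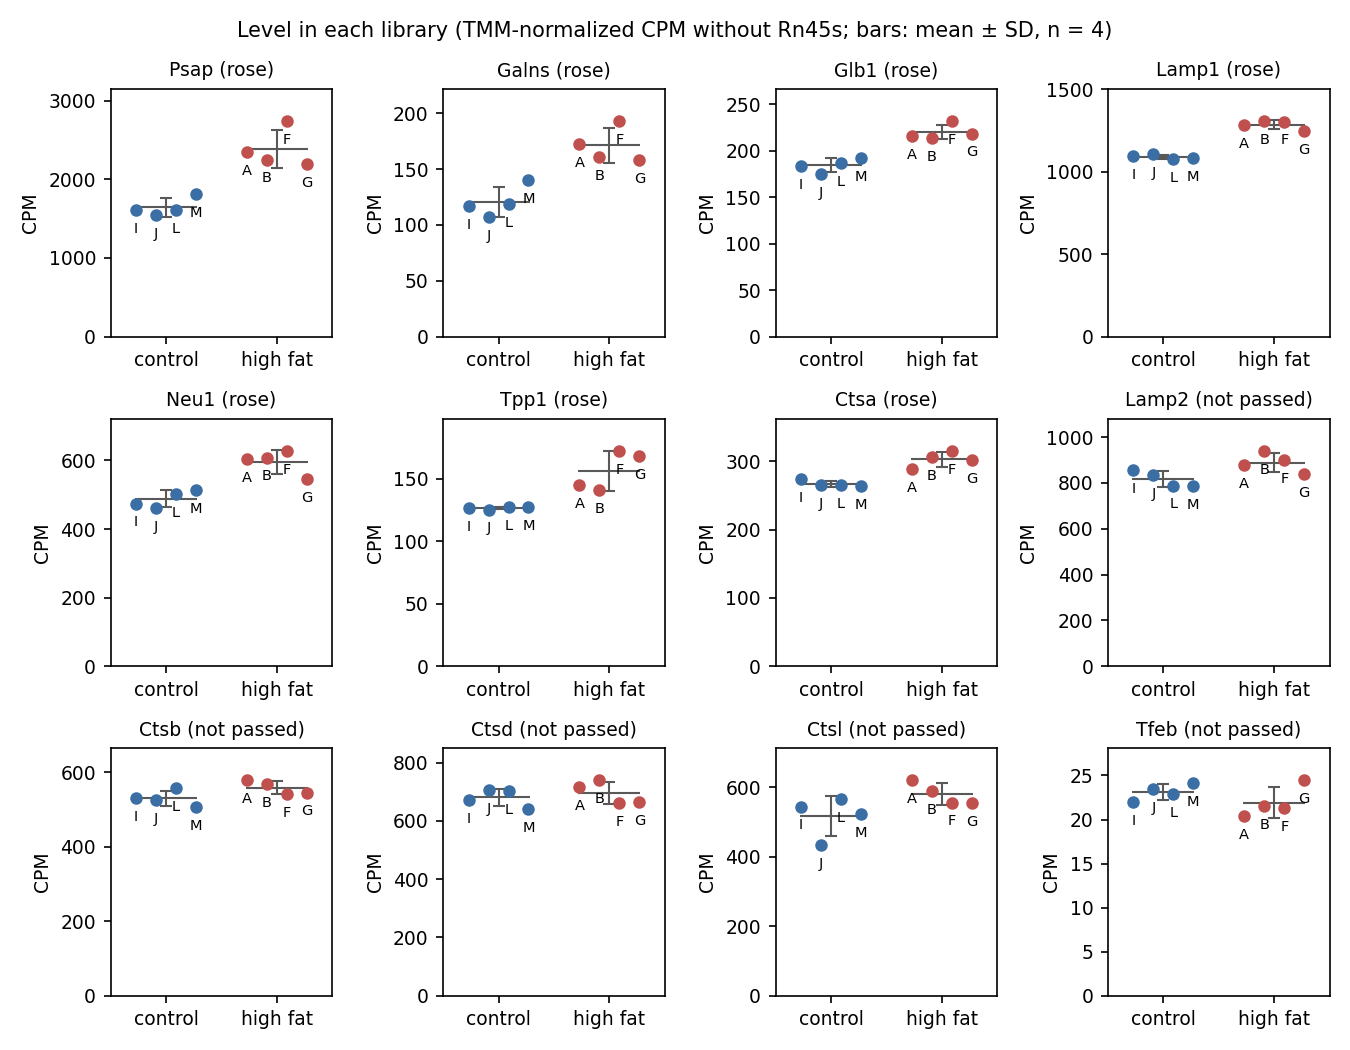
CPM in each library (y axis from 0, a scale for each gene; letters name the libraries, bars give mean ± SD, n = 4) for the 7 genes that rose and for Lamp2, Ctsb, Ctsd, Ctsl and Tfeb. In the 7 that rose every high fat library lies above every control library, while the other 5 overlap between the diets.

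Of the 8 glycan hydrolases, 2 rose, 0 fell and 6 did not pass in edgeR. At an unadjusted p under 0.05 there were 6, of which Manba was lower, and DESeq2 and limma-voom each called 3 rises and 0 falls. Neu1 (chromosome 17, 34931253 to 34935953) encodes neuraminidase 1, which removes sialic acid from glycans. It was at 604, 609, 628 and 547 CPM in high fat A, B, F and G and at 474, 461, 501 and 515 CPM in control I, J, L and M. All high fat values were higher, with G the nearest to the controls. The log2 fold change was 0.29 ± 0.061 (SE), with adjusted p = 0.016 in edgeR.

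Glb1 (chromosome 9, 114401076 to 114474898) encodes lysosomal β-galactosidase. It was at 216, 214, 232 and 218 CPM on the high fat diet and at 184, 175, 187 and 192 CPM on the control diet, without overlap. Its log2 fold change was 0.25 ± 0.051 (SE), with adjusted p = 0.014 in edgeR. Of its exon bases 5.49% are shared with Tmppe. The β-galactosidase, neuraminidase 1 and cathepsin A genes each rose in the fit of all libraries, by 1.19-fold, 1.22-fold and 1.13-fold. The Ctsa call was kept in 0 of the 8 fits without a library, and whether these genes move together was not tested.

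Fuca1, the α-fucosidase, was at 265, 273, 284 and 256 CPM against 243, 233, 244 and 235 CPM. The groups did not overlap, and the log2 fold change of 0.18 ± 0.051 (SE) missed the threshold in edgeR (adjusted p = 0.052) and passed in DESeq2 (adjusted p = 0.011) and limma-voom (adjusted p = 0.048). Man2b1, the α-mannosidase, had a log2 fold change of 0.18 ± 0.075 (SE), Hexa, the α subunit of hexosaminidase, 0.12 ± 0.056, and Gaa, which breaks down glycogen, 0.085 ± 0.052. These 3 did not pass. Below 0 were Manba, the β-mannosidase, at 138, 125, 129 and 126 CPM against 138, 147, 148 and 136 CPM, and Gla, the α-galactosidase, at 6.35 ± 0.689 against 6.96 ± 0.918 CPM (SD, n = 4). For Gla the log2 fold change, -0.13 ± 0.13 (SE), was -0.051 without high fat G, -0.079 without control I and -0.23 without control M. High fat A overlapped the controls for Manba, whose log2 fold change was -0.13 ± 0.054 (SE; adjusted p = 0.14 in edgeR).

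Among the 6 glycosaminoglycan hydrolases, whose substrates include heparan, dermatan and keratan sulfate, 1 rose, 0 fell and 5 did not pass in edgeR. All 6 had a log2 fold change above 0 (Sgsh by less than its error). At an unadjusted p under 0.05 there were 2, both higher. DESeq2 called 2 rises and limma-voom 1, with 0 falls in each. Galns (chromosome 8, 122578242 to 122611463) encodes the sulfatase of keratan sulfate and chondroitin sulfate. It was at 173, 161, 193 and 158 CPM in high fat A, B, F and G and at 117, 107, 119 and 140 CPM in control I, J, L and M. Control M was the highest of its group and high fat F of the other, with no overlap. The log2 fold change was 0.50 ± 0.087 (SE), a 1.42-fold rise, with adjusted p = 0.0073 in edgeR.

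Arsb, the sulfatase of dermatan sulfate, was at 118, 118, 176 and 172 CPM on the high fat diet and at 89.2, 129, 102 and 104 CPM on the control diet. High fat F and G were far above the rest, while A and B lay below control J. Its log2 fold change of 0.46 ± 0.15 (SE) was the third largest of the set and did not pass in edgeR (adjusted p = 0.074), and it passed in DESeq2 (adjusted p = 0.019) and, without high fat B, in edgeR (adjusted p = 0.046). Ids, the iduronate sulfatase, showed a like order, at 49.9, 51.1, 69.1 and 74.5 CPM against 45.1, 56.0, 49.1 and 54.6 CPM. High fat F and G were again the high libraries, and the log2 fold change of 0.26 ± 0.13 (SE) did not pass. It was 0.15 without high fat G. Idua, the α-iduronidase, had a log2 fold change of 0.20 ± 0.11 (SE) and Naglu, which acts on heparan sulfate, 0.12 ± 0.084. That of Naglu was 0.067 without high fat F and 0.21 without control M. Sgsh, the heparan sulfamidase, did not move beyond its error, at 18.3 ± 1.47 against 18.2 ± 1.72 CPM (SD, n = 4).

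Of the 7 lipid hydrolases and activators, 1 rose, 0 fell and 6 did not pass in edgeR, DESeq2 and limma-voom. At an unadjusted p under 0.05 there were 5, of which Asah1 was lower. Psap (chromosome 10, 60277627 to 60302597) encodes prosaposin, the precursor of the saposins, which present sphingolipids to their hydrolases. It was at 2347, 2251, 2737 and 2197 CPM in high fat A, B, F and G and at 1607, 1544, 1611 and 1813 CPM in control I, J, L and M. The groups were well apart, with high fat F the highest library. The log2 fold change was 0.54 ± 0.082 (SE), with adjusted p = 0.0043 in edgeR. Psap made up 21.4% to 24.9% of the summed CPM of the 37 genes on the high fat diet and 17.7% to 20.03% on the control diet.

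The other 6 genes of this class did not pass. Asah1, acid ceramidase, was the one gene of the set with all high fat values below all control values, at 75.6, 72.5, 74.0 and 70.8 CPM against 80.01, 76.7, 81.4 and 78.5 CPM. The gap between high fat A and control J was narrow, and the log2 fold change of -0.11 ± 0.048 (SE) did not pass (adjusted p = 0.16 in edgeR). Smpd1, acid sphingomyelinase, was at 117 ± 1.85 against 106 ± 6.41 CPM (SD, n = 4), without overlap, and Arsa, which removes sulfate from sulfatide, at 10.9 ± 0.536 against 9.21 ± 0.998 CPM. Lipa, acid lipase, which frees cholesterol and fatty acids from lipoprotein lipids, had a log2 fold change of 0.20 ± 0.076 (SE; adjusted p = 0.11 in edgeR). It was at 414, 457, 414 and 425 CPM against 368, 342, 430 and 348 CPM. Control L lay inside the high fat range, and without it the log2 fold change was 0.28, with adjusted p = 0.029 in edgeR. Ppt1, a thioesterase that takes fatty acids off proteins, had a log2 fold change of 0.12 ± 0.068 (SE; 0.077 without control J), and Gm2a, the activator for ganglioside GM2, one of -0.0073 ± 0.055.

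**Figure D3:**
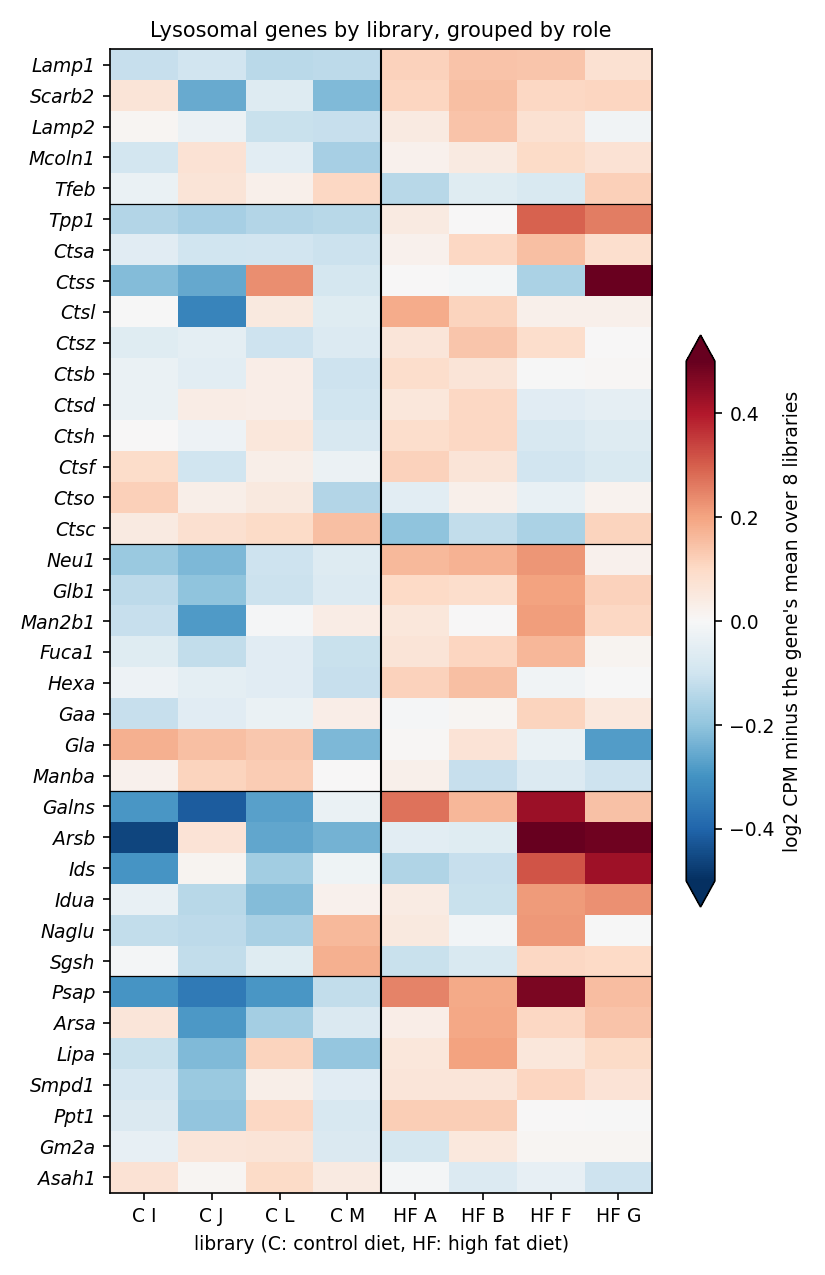
Log2 CPM of each gene minus its mean over the 8 libraries (colour, red above and blue below; rows are the 37 genes by role, columns the 4 control and 4 high fat libraries). High fat libraries are above the gene's mean in 25 to 27 of 37 genes and control libraries in 9 to 16. Arsb and Ids are high mainly in high fat F and G, and Ctss in high fat G.

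By library, 27, 27, 25 and 27 of the 37 genes lay above their own mean in high fat A, B, F and G and 10, 11, 16 and 9 in control I, J, L and M. The median log2 fold change stayed between 0.12 and 0.15 when any 1 library was left out. With control J left out, 5 of the 37 genes rose and 0 fell, beside 422 rises and 379 falls among 14841 tested genes (5.40% called in either direction). Psap, Galns, Glb1, Lamp1 and Neu1 kept their calls in all 8 fits that each left out 1 library. After removal of both control J and high fat G, 3 genes rose (Psap, Galns and Neu1). Beside them stood 244 rises and 173 falls among 14740 tested genes (2.83% called in either direction). Glb1 then had an adjusted p = 0.073 and Lamp1 an adjusted p = 0.054 in edgeR.

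The authors' deposited table of called genes by symbol lists 9 of the 37 genes: the 7 that rose here, with Fuca1 and Ctsz. It lists 1133 genes in all, beside the 23504 symbols of the count table. In that authors' deposited table the fold of high fat over control was 1.45 for Psap and 1.42 for Galns, and its probability of equal expression was at most 0.0499 for any listed gene. The authors' deposited table by Ensembl gene lists 10 of the 37 genes among 1175 listed, adding Mcoln1 at a fold of 1.10.

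Related genes were counted in the same fit to see how far the rest of the lysosomal system moved. The shares to set beside each list are those over all tested genes. There 4.86% rose, 5.13% fell, 27.4% had an unadjusted p under 0.05 in edgeR and 49.5% had a log2 fold change above 0. Of 22 tested other lysosomal hydrolases 1 rose, 0 fell and 21 did not pass in edgeR. The 1 was Gusb, β-glucuronidase, at 89.8 ± 38.5 against 34.4 ± 3.70 CPM (SD, n = 4), higher by 1.38 ± 0.23 (SE) on the log2 scale (adjusted p = 0.0060 in edgeR). DESeq2 called 5 rises and limma-voom 2 in this list, with 0 falls in each. At an unadjusted p under 0.05 there were 8, all higher, and the list's median log2 fold change was 0.071. Lgmn, the abundant asparaginyl endopeptidase, was at 817 ± 57.9 against 819 ± 67.8 CPM (SD, n = 4) and did not pass.

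Of 21 tested other lysosomal membrane proteins 2 rose and 1 fell, and 16 had a log2 fold change above 0. An unadjusted p under 0.05 was reached by 8, of which 7 were higher. The median of this list, 0.14, was close to that of the 37 genes, and its library medians did not overlap either, at -0.0024 to 0.14 on the high fat diet and -0.11 to -0.017 on the control diet. Slc17a5, which exports sialic acid from the lysosome, was at 100.1 ± 7.99 against 72.5 ± 9.10 CPM (SD, n = 4), higher by 0.46 ± 0.091 (SE) on the log2 scale (adjusted p = 0.012 in edgeR). Neu1, the enzyme that releases sialic acid, also rose, and whether these genes move together was not tested. Abca2, a lipid transporter, rose by 0.51 on the log2 scale, and Mfsd8 fell by 0.32. When each library was dropped in turn, Abca2 passed in 3 of 8 fits and Mfsd8 in 1 of 8, and their highest adjusted p in edgeR, 0.065 and 0.090, came when control I was dropped. Without control J, 1 gene of this list rose and 0 fell.

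The proton pump acidifies lysosomes. Of its 16 subunit genes 0 rose and 0 fell in edgeR, DESeq2 and limma-voom, with 3 at an unadjusted p under 0.05, 2 of them lower, and the median log2 fold change was -0.019. Their summed CPM was 3063 ± 44.0 on the high fat diet and 3077 ± 61.5 on the control diet (SD, n = 4). These subunits also serve other acidic compartments and, in intercalated cells, the plasma membrane.

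Of 14 genes of mannose 6-phosphate tagging and sorting 1 rose and 1 fell, with a median log2 fold change of -0.011. Igf2r, the large mannose 6-phosphate receptor that delivers the hydrolases, rose from 383 ± 42.3 to 491 ± 36.4 CPM (SD, n = 4), by 0.36 ± 0.084 (SE) on the log2 scale with adjusted p = 0.024 in edgeR. It lost that call without high fat A or F or control I (adjusted p up to 0.067 in edgeR). M6pr, the small receptor, was at 273 ± 11.8 against 274 ± 18.7 CPM (SD, n = 4) and did not pass. Sort1, a further sorting receptor, fell by 0.19 on the log2 scale, a call that none of the 8 fits without a library kept (highest adjusted p = 0.098 in edgeR).

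Of 24 autophagy genes 4 rose, 0 fell and 20 did not pass in edgeR, with the same counts in DESeq2 and limma-voom; 11 had an unadjusted p under 0.05, of which 8 were higher. Ulk1, the kinase that starts autophagy, rose from 23.3 ± 2.03 to 37.3 ± 7.09 CPM (SD, n = 4), by 0.68 ± 0.12 (SE) on the log2 scale with adjusted p = 0.0086 in edgeR. Its relative Ulk2 rose by 0.23, Map1lc3a, a protein of the autophagosome membrane, by 0.42, and Wipi1, which binds phosphoinositide at the forming membrane, by 0.80. Ulk2 lost its call without high fat A or F or control I, with an adjusted p of up to 0.057 in edgeR. Sqstm1, the receptor that autophagy consumes, was at 609 ± 53.4 against 579 ± 73.2 CPM (SD, n = 4) and did not pass. This list had 4 rises in the fit lacking control J, and 2 when high fat G was removed as well.

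Of 25 genes of the TFEB family and its control 2 rose, 0 fell and 23 did not pass in edgeR, DESeq2 and limma-voom. An unadjusted p under 0.05 was found in 7, of which 5 were higher, beside 27.4% of all tested genes. Mtor, the kinase that retains TFEB in the cytoplasm, rose from 382 ± 60.2 to 570 ± 48.2 CPM (SD, n = 4), by 0.58 ± 0.10 (SE) on the log2 scale with adjusted p = 0.0085 in edgeR. Fnip2, a partner of folliculin in the pathway that signals amino acids to mTOR, rose by 0.58 as well, from 139 ± 16.1 to 209 ± 17.4 CPM (SD, n = 4). The TFEB relatives Tfe3 and Mitf did not pass, with log2 fold changes of 0.033 and -0.16.

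Macrophages are rich in lysosomes, so their markers were measured beside the set. Of 15 tested macrophage markers 0 passed in edgeR, DESeq2 and limma-voom. An unadjusted p under 0.05 in edgeR was reached by 0, beside 27.4% of all tested genes. Of the 15 markers 14 had a log2 fold change above 0, beside 49.5% of all tested genes, and their median was 0.12. Their sum over 16 genes ran from 134 to 179 CPM on the high fat diet and from 116 to 168 CPM on the control diet, so that the diets overlapped. None of the defining markers was at 0, with Cd68, which the membrane list also holds, at 0.860 to 2.27 CPM over the 8 libraries. Laptm5 is likewise in both lists. Lymphocyte markers summed to at most 3.85 CPM in any library. Of 6 fat markers, Fabp4, which endothelium also expresses, was at 31.01 to 41.2 CPM, and each of the other 5 was at 0.548 CPM or below in every library. The part of these cells in the rises of lysosomal genes was not tested.

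**Figure D4:**
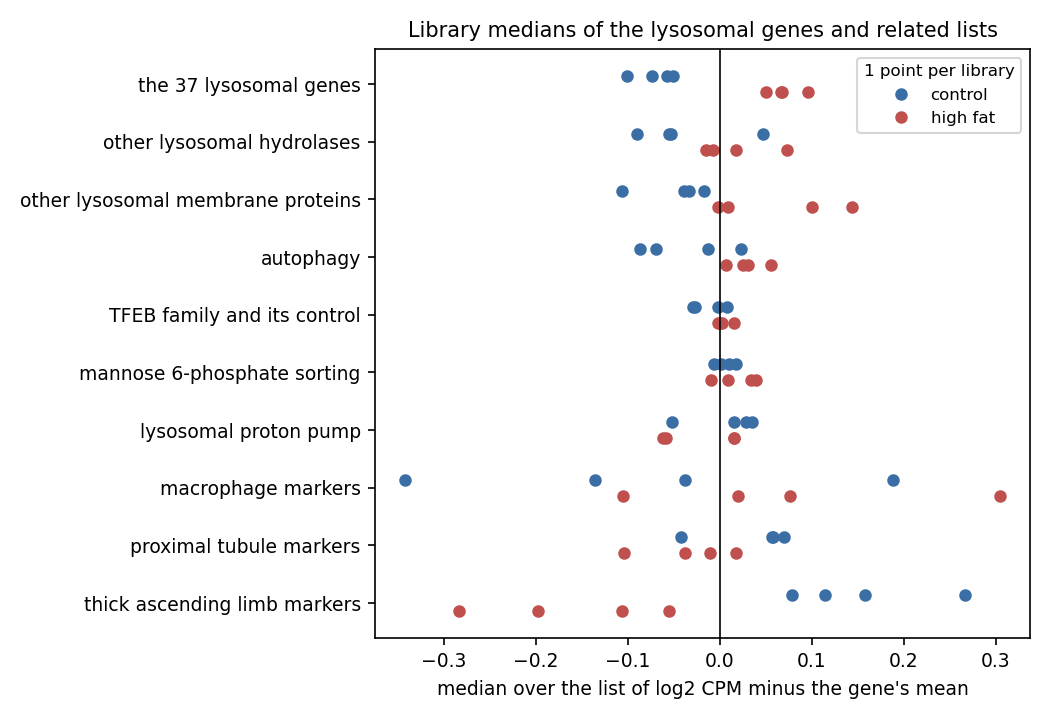
Median over each list of log2 CPM minus the gene's mean (x axis), 1 point per library, control in blue and high fat in red. The 37 lysosomal genes lie at 0.051 to 0.095 in the high fat libraries and at -0.10 to -0.051 in the control libraries. The other lysosomal membrane proteins also do not overlap, at -0.0024 to 0.14 and -0.11 to -0.017, while the other hydrolase, proton pump, sorting, autophagy, TFEB, macrophage and proximal tubule lists do. The thick ascending limb markers do not overlap either, in the other direction, at -0.28 to -0.055 in high fat and 0.078 to 0.27 in control libraries.

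The lysosomal shift was also set beside gene length, because over all tested genes the median log2 fold change went from -0.065 in the shortest 10% of genes to 0.058 in the longest 10%. None of the 37 genes belonged to either. In the 8 length groups between, which held 2 to 9 of them each, their median was 0.16, 0.032, 0.12, 0.14, 0.037, 0.18, 0.18 and 0.17 from shorter to longer. Over all genes of those groups it was -0.038, -0.028, -0.0098, -0.011, -0.0019, 0.017, 0.016 and 0.034. The members' median was the higher in each, by least in the groups with medians of 0.032 and 0.037, which held 3 and 2 of them. With the length trend removed in each library, 7 of the 37 genes rose and 0 fell, and their median was 0.14. Beside them stood 724 rises and 907 falls among 14701 tested genes (11.1% called in either direction), with a median of -0.015. Ctsa then missed the threshold (adjusted p = 0.070 in edgeR) and Ctsz passed it (adjusted p = 0.042). The part of gene length in the rises was not tested.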

How the data were processed

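Expected counts per gene symbol were deposited by the authors, who used CASAVA 1.8.2 and RSEM 1.2.9 with mm10 per the submitters' processing notes; libraries were made from outer cortex RNA after ribosomal RNA removal, per the labels' protocols. The authors also deposited FPKM values per gene symbol. A pair of comparison tables deposited by the authors gives a fold (ratio) and a posterior probability of equal expression; the sources used here do not name the tool behind them.

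Here expected counts were rounded, Rn45s was removed, and edgeR 4.0.16 (R 4.3.3) was fitted with diet as the only term: TMM factors, filterByExpr, quasi-likelihood F test, Benjamini-Hochberg adjustment over 14711 genes, call at an adjusted p under 0.05. Standard errors are the size of the log2 fold change over the square root of F. CPM use TMM-scaled library sizes without Rn45s. Library letters differ between the diets, so no pairing was used. The fitting code was tested on simulated data. It recovered 30% of simulated 1.3-fold changes, 76% of 1.5-fold changes and 100% of 4-fold changes. A gene that did not pass may therefore still differ by a small fold. DESeq2 1.42.0 and limma 3.58.1 gave alternatives.

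The genes and lists were chosen with earlier results of these data known. Values in every library are given for each called gene, for the 6 smallest p and for Tfeb, Lamp1, Lamp2, Ctsb, Ctsd and Ctsl; Scarb2, Fuca1, Ctsz, Ctsc, Ctss, Manba, Arsb, Ids, Asah1 and Lipa were added after their values were seen. In each related list up to 4 called genes are named, and others as context. List symbols were matched through RefSeq synonyms; 1 (Trac) found no match. Gene positions are GENCODE M21 (GRCm38) and promoters RefSeq GRCm38.p6.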

Additional observations from a re-analysis of the deposited data

Results flagged for a closer look

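In groups of 4, a library was marked where its gap to the nearest other, divided by the group's range, exceeded Dixon's critical value. Of 74 groups (37 genes, 2 diets), 4 were marked, and chance marks about 5% of groups. Scarb2 was at 44.8 CPM in high fat B against 43.3 to 43.5 CPM in the other 3 libraries of that diet. Ctsa was at 274 CPM in control I against 265 to 266 CPM in the other controls. In control M, Gla was at 5.59 CPM against 7.30 to 7.55 CPM, and Naglu at 47.9 CPM against 38.1 to 39.3 CPM.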

How the results depend on the processing

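All 7 called genes kept their direction in the 20 alternatives run. The removal of the length trend was chosen after seeing the data. The count of lysosomal genes that rose was 11 with DESeq2, 4 and 4 with limma on log2 rescaled FPKM with pseudocounts of 0.1 and 1, 3 with control J and high fat G (J and G) removed, 11 at an adjusted p under 0.1 and 2 at 0.01. Without single libraries it ran from 5 to 7, the count that fell from 0 to 1, and the median log2 fold change from 0.12 (without control J) to 0.15. Over all tested genes the calls were 1842 (949 rises, 893 falls; 12.5% of genes) with DESeq2, 812 (368 rises, 444 falls) and 825 (376 and 449) on rescaled FPKM, 417 (244 and 173) with J and G removed, 2547 (1222 and 1325) at 0.1 and 330 (181 and 149) at 0.01. Without single libraries they ran from 739 to 1528, rises from 421 to 759 and falls from 318 to 769. The lowest counts came without high fat F; fits without high fat A (934) or G (908) or control I (795) or J (801) also lay more than 1.5 times below the 1469 of all libraries. Genes whose fold change is near 0 changed sign. Ctsf was at -0.0017 with limma-voom, -0.0044 with no filter and -0.0010 with J and G removed; Sgsh at -0.0044, -0.0058 and -0.066 in these and -0.035 with the length trend removed; Ctss at -0.044 with J and G removed; Gm2a at 0.0021 with a mean of at least 5 CPM, 0.0084 and 0.0083 on rescaled FPKM and 0.0072 with J and G removed. Without single libraries Ctsf ran from -0.037 to 0.035, Ctsh from -0.0061 to 0.055, Ctso from -0.080 to 0.012, Sgsh from -0.033 to 0.070 and Gm2a from -0.033 to 0.019. The cause of these changes was not tested. Rn45s kept or removed gave the same 7 rises. Depth limits mainly Idua, Gla and Arsa, the least abundant of the set.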
